A study of Mus musculus with 6 samples.

Results

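Cholesterol synthesis and its control were followed through 30 genes, chosen by name as enzymes, sensors and carriers of sterols, among 54146 genes in a table of bulk RNA sequencing from mouse kidney. All 30 were found by symbol and all 30 passed the filter on low counts, with between 42 and 6999 counts per library. The list holds 7 enzymes of the mevalonate arm, 3 that lead to lanosterol through squalene, 8 that turn lanosterol into cholesterol, 5 genes of sterol sensing, and 7 of transport, efflux and storage.

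The kidneys came from G2APOL1, G0APOL1 and WT mice, with 2 libraries in each group. G2APOL1 and G0APOL1 mice expressed human APOL1, which encodes apolipoprotein L1, from a transgene that is inducible and specific to a cell type. Its G2 form is linked to risk of kidney disease and its G0 form is the reference. The WT label names no transgene. In all 3 groups, WT included, a single kidney had been removed at 6 weeks of age and the diet held 4% salt afterwards. The prefix EC stands before both transgenic genotypes and is not spelled out, and the sources used here do not give the promoter, the inducing agent or the sex of the animals. Nothing says that the 2 libraries of a group are separate animals, so errors and p-values measure the spread between these samples, which may be technical. Total counts ranged from 8490396 to 11800932 per library, and transcripts of the mitochondrial genome took 12.6% to 21.1% of them. On the first principal component of log2 CPM (the normalised read count, scaled to library size), with 38.5% of the variance, the 4 transgenic libraries lay between 29.7 and 39.4, against -60.2 and -81.3 in WT. The second component held 22.6% and set G0APOL1 replicate 2 apart from the rest, at -72.1.

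Cells make cholesterol from acetyl-CoA through mevalonate, isoprenoids, squalene and lanosterol. When sterols run low in the endoplasmic reticulum, the escort protein Scap carries the SREBP transcription factors to the Golgi, where they are cut and released to switch on these enzymes, while Insig proteins hold Scap back when sterols are plentiful. Surplus cholesterol is esterified by Soat1 or exported through Abca1, a target of the liver X receptors. In the kidney, proximal tubule cells also take up sterol in lipoproteins and filtered proteins, and release it from lysosomes with Npc1 and Npc2.

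SREBPs act at promoters together with NF-Y, which reads CCAAT, and Sp1, which reads GGGCGG. The 250 bases before the RefSeq start (build GRCm38.p6) are printed for 6 of the genes because the values below turn on them: Hmgcs1 and Cyp51 as the highest enzymes per length, Idi1, Nsdhl and Sc5d among those that passed, and Insig1 as a gene that separates single libraries. Capitals mark CCAAT on either strand, which reads ATTGG when inverted, and in Hmgcs1 the sterol regulatory element core TCACNCCAC.
Hmgcs1, chr13:119690101-119690350, plus strand: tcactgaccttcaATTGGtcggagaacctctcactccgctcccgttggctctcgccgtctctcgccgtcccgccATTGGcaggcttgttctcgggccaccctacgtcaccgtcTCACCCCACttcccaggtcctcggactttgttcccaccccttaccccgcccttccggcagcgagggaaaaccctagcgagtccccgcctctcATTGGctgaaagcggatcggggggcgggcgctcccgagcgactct
Idi1, chr13:8885356-8885605, plus strand: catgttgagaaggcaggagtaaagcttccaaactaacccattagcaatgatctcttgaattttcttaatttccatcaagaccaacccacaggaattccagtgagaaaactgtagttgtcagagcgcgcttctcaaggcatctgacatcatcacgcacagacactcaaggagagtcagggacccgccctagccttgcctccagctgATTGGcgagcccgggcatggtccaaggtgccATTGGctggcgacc
Cyp51, chr5:4104698-4104947, minus strand: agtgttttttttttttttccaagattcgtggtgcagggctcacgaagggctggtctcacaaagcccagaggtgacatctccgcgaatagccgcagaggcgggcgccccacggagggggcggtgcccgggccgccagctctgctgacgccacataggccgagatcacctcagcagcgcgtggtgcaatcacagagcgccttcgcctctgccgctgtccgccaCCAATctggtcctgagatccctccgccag
Nsdhl, chrX:72918271-72918520, plus strand: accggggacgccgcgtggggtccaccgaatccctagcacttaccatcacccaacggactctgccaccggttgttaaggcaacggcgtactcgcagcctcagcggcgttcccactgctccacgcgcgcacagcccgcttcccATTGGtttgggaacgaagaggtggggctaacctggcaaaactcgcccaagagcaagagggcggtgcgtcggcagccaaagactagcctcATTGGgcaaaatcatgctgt
Sc5d, chr9:42264301-42264550, minus strand: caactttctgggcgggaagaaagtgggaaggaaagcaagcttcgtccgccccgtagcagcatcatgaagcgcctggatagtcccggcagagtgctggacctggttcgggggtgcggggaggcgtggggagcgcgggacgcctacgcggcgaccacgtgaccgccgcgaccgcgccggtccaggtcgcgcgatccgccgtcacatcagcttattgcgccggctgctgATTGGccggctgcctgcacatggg
Insig1, chr5:28071162-28071411, plus strand: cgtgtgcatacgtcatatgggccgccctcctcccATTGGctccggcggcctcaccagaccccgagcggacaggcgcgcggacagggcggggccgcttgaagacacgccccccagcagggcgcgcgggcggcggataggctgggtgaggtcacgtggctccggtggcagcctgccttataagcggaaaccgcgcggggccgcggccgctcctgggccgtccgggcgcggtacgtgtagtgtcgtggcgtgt

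Promoter windows of 300 bases, from 250 before to 50 after the start, were used for 25 of the 30 genes, in 34 windows. Windows of the listed genes on chromosome 18, which holds Stard4 and Npc1, were left out. The share over all windows was taken without that exclusion. Each motif was searched on both strands. CCAAT was present in 21 of 34 windows, or 61.8%, against 37.4% of 32851 mouse promoter windows. It was found in at least 1 window for 14 of the 15 synthesis enzymes with a window, Acat2 being the other. Pmvk and Dhcr7 have several windows and held it in only some of them. The share counted by gene over all genes was not taken. GGGCGG was present in 26 of 34 windows, or 76.5%, against 35.7% of all windows. The sterol core TCACNCCAC was in 1 of 34 windows, 2.94%, against 1.24% of all, and that window was the one of Hmgcs1, 137 bases before the start. In Hmgcs1 3 CCAAT boxes lay between 237 and 45 bases before the start, in Idi1 and Nsdhl 2 each, and in Cyp51, Sc5d and Insig1 1 each. These are matches of letters and no measure of binding, and matches of different motifs may share bases at their ends.

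Per exonic base, with the exons of all annotated transcripts of a gene merged, the sterol genes spanned a wide range in WT kidney. On a scale of counts per exonic base with the same total in each library, the level of Hmgcs1, which condenses acetyl-CoA units into HMG-CoA, was the highest at 175, followed by Cyp51, which demethylates lanosterol, at 115 and the isomerase Ebp at 71.9. The lysosomal transporter Npc1 was the lowest at 1.54, below the exporter Abca1 at 1.84 and the lanosterol-forming cyclase Lss at 2.10. Hmgcs1 kept the first rank in the G2APOL1 and G0APOL1 means too, at 248 and 208. Over the 6 libraries it ran from 167 to 251, which overlaps the 85.8 to 242 of Cyp51. Npc1 ran from 1.52 to 4.04 and Abca1 from 1.24 to 2.86, so their order at the bottom is not separated beyond the spread. The low places of Npc1, Lss and Abca1 also depend on their long merged exons, at 11317, 10787 and 10363 bases.

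**Figure D1:**
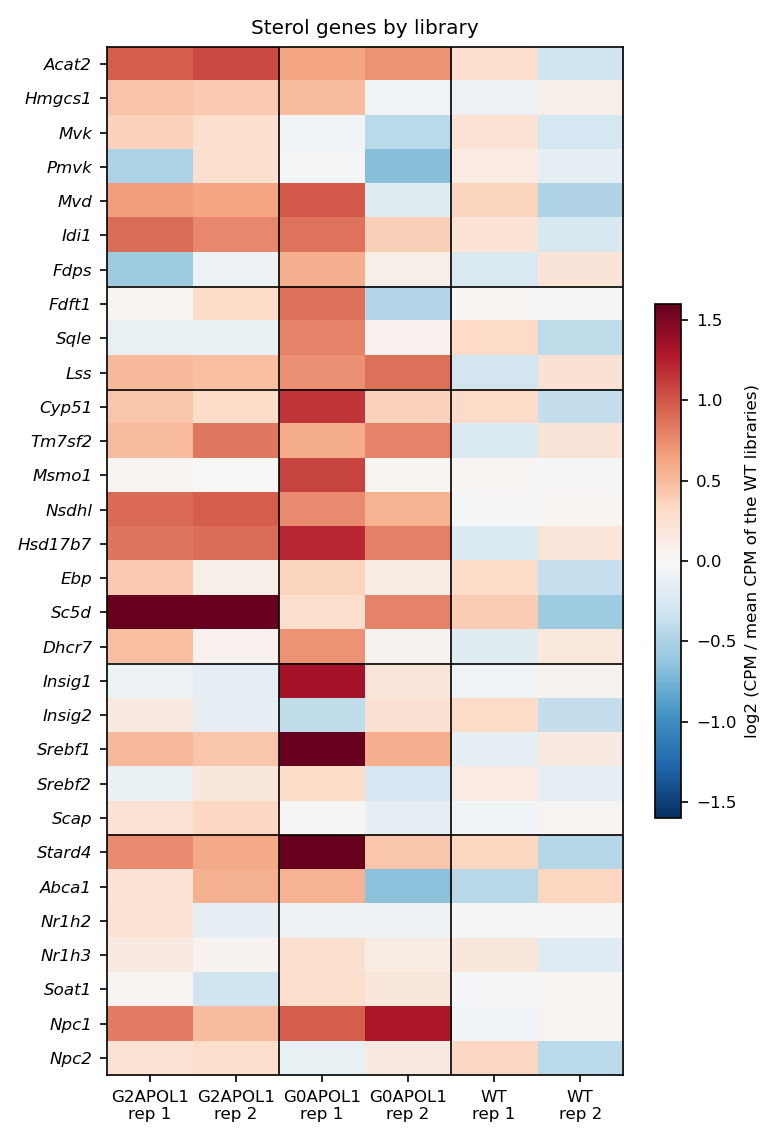
Each row is a sterol gene and each column a library, with colour for log2 of its CPM over the mean of the 2 WT libraries; black lines part the 5 roles and the 3 groups, and colours at both ends of the scale also stand for values beyond it. Sc5d is darkest in both G2APOL1 libraries, while Insig1, Srebf1, Stard4 and Cyp51 are darkest in G0APOL1 replicate 1.

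In kidneys with the G2 transgene, 4 of the 30 genes rose against WT and 0 fell. All 4 are synthesis enzymes: Acat2 and Idi1 of the mevalonate arm, and Nsdhl and Sc5d of the late steps. Over all 14386 tested genes, 4.57% rose and 3.62% fell in this comparison. Of the 30 genes, 25 had a positive log2 fold change, against 47.8% of all tested genes. The median was 0.30, against -0.04 over all genes tested. An unadjusted p under 0.05 was reached by 6 genes, all of them higher. Of all 14386 tested genes, 3247 reached it, 1693 of them higher. DESeq2 and limma-voom called the same 4 genes and 0 lower. Each test was edgeR's quasi-likelihood test over all tested genes, with an adjusted p under 0.05 called. In bulk tissue a change in the number of cells of a type and a change of RNA per cell cannot be told apart.

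Sc5d, the desaturase of lathosterol late in the pathway (chromosome 9, 42251595 to 42264256, minus strand, GRCm38 as all positions), had the largest change of the list. Its level was 34.0 and 36.5 CPM in G2APOL1, 13.1 and 18.7 CPM in G0APOL1, and 14.3 and 7.25 CPM in WT. Both G2APOL1 libraries stood above all the others, and the G0APOL1 and WT libraries overlapped. Sc5d rose by 1.71 ± 0.35 in G2APOL1 against WT (log2 fold change with its SE, from 2 libraries in each group here and in what follows; adjusted p = 0.0102). Leaving out any single library gave 1.32 to 2.29, with an adjusted p of at most 0.0483. Among the sterol genes called in either comparison with WT, Sc5d alone kept its call whichever library was removed.

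Nsdhl, a dehydrogenase that helps remove the methyl groups of lanosterol (chromosome X, 72918557 to 72958514, plus strand), was the tightest of the 4. It stood at 94.4 and 98.1 CPM in G2APOL1, 85.0 and 73.8 CPM in G0APOL1, and 48.9 and 51.4 CPM in WT. The 3 groups did not overlap, with G2APOL1 highest and WT lowest. Nsdhl rose by 0.94 ± 0.18 in G2APOL1 (adjusted p = 0.00788). Without either G2APOL1 library the call was lost, with an adjusted p of up to 0.0972, while the value stayed between 0.91 and 1.00 over all removals.

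Acat2, the cytosolic thiolase that joins 2 acetyl-CoA molecules at the entry of the pathway (chromosome 17, 12942890 to 12960747, minus strand), had 123.5 and 130.6 CPM in G2APOL1, 97.1 and 103 CPM in G0APOL1, and 75.3 and 50.5 CPM in WT. Here too the 3 groups did not overlap. Acat2 rose by 1.01 ± 0.21 in G2APOL1 (adjusted p = 0.0104), and lost the call without either G2APOL1 library, with an adjusted p of up to 0.0781 and fold changes of 1.09 and 1.00 there. A near-identical copy, Acat3, shares 98.5% of its aligned bases and held 2512 counts over the 6 libraries, against 5667 for Acat2, so reads could be split between them. With the copy's counts added, Acat2 was at 0.68 in G2APOL1 (adjusted p = 0.039), still called, and at 0.37 in G0APOL1 (adjusted p = 0.263).

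Idi1, the isomerase that makes the reactive isoprene unit (chromosome 13, 8885501 to 8892451, plus strand), had 143.9 and 132 CPM in G2APOL1, 142.3 and 101 CPM in G0APOL1, and 90.5 and 64.7 CPM in WT. All 4 transgenic libraries were above both WT libraries. Its exons share 9.2% of their bases with Gm48574 on the opposite strand, and the library kit is not stated to mark strand. Idi1 rose by 0.83 ± 0.22 in G2APOL1 (adjusted p = 0.0356). It lost the call without either G2APOL1 library and without WT replicate 2, with an adjusted p of up to 0.237 and fold changes of 0.62 to 1.10 over all removals.

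**Figure D2:**
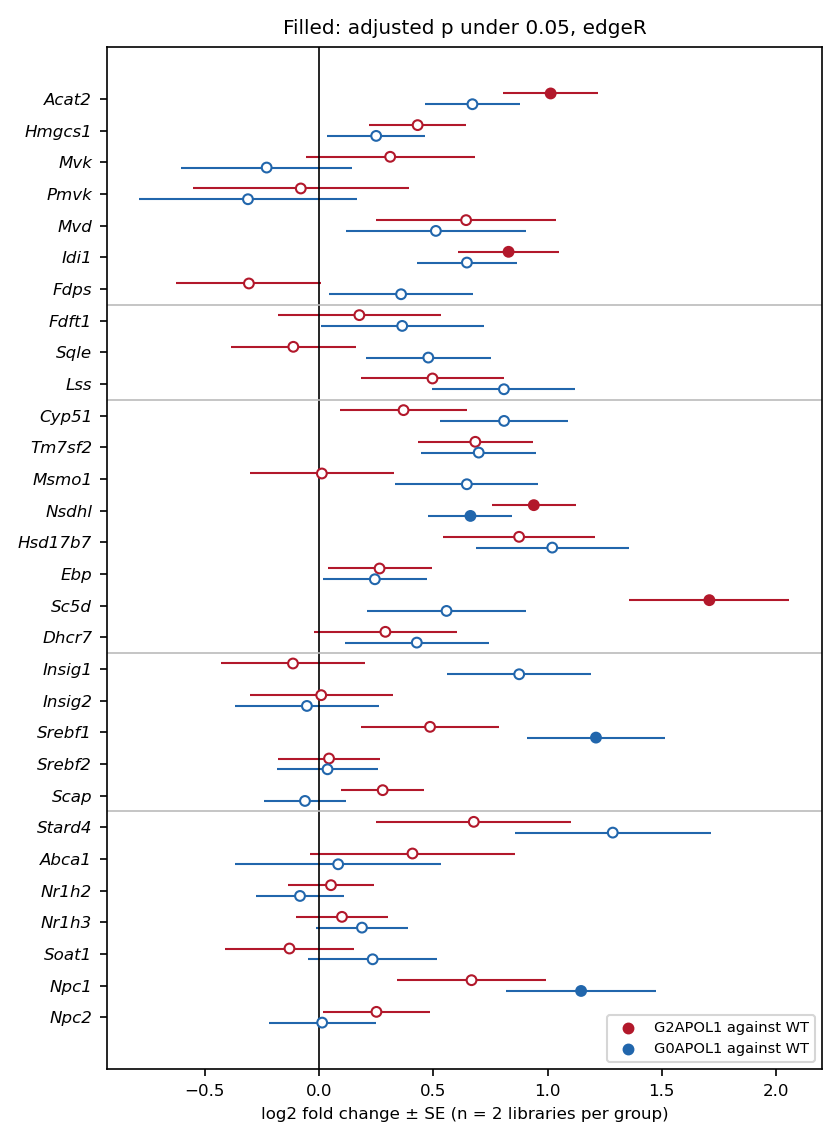
Points are log2 fold changes of the 30 sterol genes with bars of 1 SE (n = 2 libraries per group), for G2APOL1 against WT and G0APOL1 against WT; filled points passed edgeR's test and grey lines part the roles. In G2APOL1 the filled points are Acat2, Idi1, Nsdhl and Sc5d, and in G0APOL1 they are Nsdhl, Srebf1 and Npc1.

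The remaining enzymes of the mevalonate arm did not pass in G2APOL1 against WT. Hmgcs1 had 600.0 and 584.8 CPM in G2APOL1, 620.9 and 423.8 CPM in G0APOL1, and 410.2 and 468.2 CPM in WT. Both G2APOL1 libraries were above both WT libraries, whereas G0APOL1 replicate 2 lay between the WT libraries. Its fold change was 0.43 ± 0.21 in G2APOL1 (adjusted p = 0.255). Hmgcs1 shares 12.1% of its exonic bases with Gm48342 on the opposite strand. The kinases Mvk and Pmvk were at 0.31 ± 0.37 and -0.08 ± 0.47, the decarboxylase Mvd at 0.64 ± 0.39 and the prenyl transferase Fdps at -0.31 ± 0.32. Mvk, Pmvk and Fdps had at most 276 counts in any library, and Pmvk at most 89.

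From squalene to lanosterol, 0 of 3 genes passed in G2APOL1 against WT, and 0 had an unadjusted p under 0.05. Sqle, the squalene monooxygenase, had 55.0 and 55.3 CPM in G2APOL1, 103.5 and 62.6 CPM in G0APOL1, and 74.4 and 44.8 CPM in WT. Both G2APOL1 libraries lay between the 2 WT libraries, and the fold change was -0.11 ± 0.27 (adjusted p = 0.86). The squalene synthase Fdft1 was at 0.18 ± 0.36, and Lss at 0.50 ± 0.31. Fdft1 shares 18.3% of its exonic bases with Ctsb on the opposite strand, and the library kit is not stated to mark strand.

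Of the 8 enzymes from lanosterol onwards, all had a positive fold change in G2APOL1, 2 passed and 4 had an unadjusted p under 0.05. Those 4 were Nsdhl, Sc5d, Tm7sf2 and Hsd17b7. Of all 14386 tested genes, 47.8% had a positive fold change and 3247 had an unadjusted p under 0.05. Tm7sf2, a sterol reductase, was at 0.68 ± 0.25 (adjusted p = 0.12), and the ketosteroid reductase Hsd17b7 at 0.88 ± 0.33 (adjusted p = 0.133). Tm7sf2 shares 12.1% of its exonic bases with Vps51 on the same strand. Cyp51, with 373 and 337 CPM in G2APOL1 against 339 and 210 CPM in WT, was at 0.37 ± 0.28. Ebp, the final reductase Dhcr7 and the methyl oxidase Msmo1 were at 0.27 ± 0.23, 0.29 ± 0.31 and 0.01 ± 0.31.

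The sensing machinery did not pass in G2APOL1 against WT in any of its 5 genes, and 0 had an unadjusted p under 0.05. Srebf2, the SREBP that drives sterol synthesis, had 67.5 and 82.4 CPM in G2APOL1, 88.9 and 60.1 CPM in G0APOL1, and 79.7 and 65.5 CPM in WT. The 3 groups covered the same range, with fold changes of 0.04 ± 0.22 in G2APOL1 and 0.04 ± 0.22 in G0APOL1 against WT. Their sign turned with the stricter low-count filter, at -0.03 and -0.04. Insig1, itself a sensitive SREBP target, had 28.0 and 26.6 CPM in G2APOL1, 74.7 and 33.7 CPM in G0APOL1, and 28.3 and 30.9 CPM in WT. Thus 1 G0APOL1 library was at more than 2 times each of the other 5, and in G2APOL1 the fold change was -0.11 ± 0.32. Scap and Insig2 were at 0.28 ± 0.18 and 0.01 ± 0.31 in G2APOL1.

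**Figure D3:**
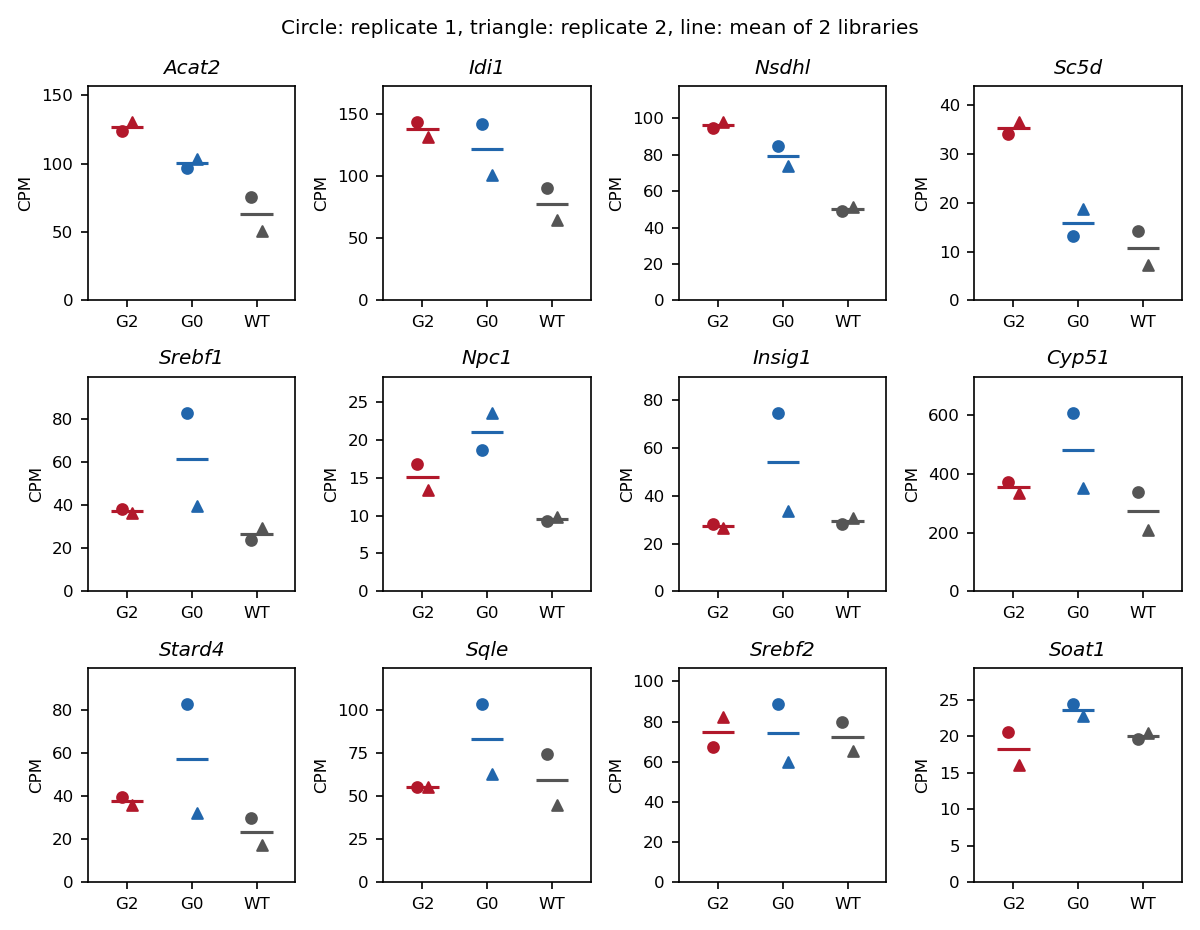
Each panel shows the CPM of a gene in the 6 libraries, as a circle for replicate 1 and a triangle for replicate 2, with a line at the mean of 2 libraries; the axes start at 0. Acat2, Idi1, Nsdhl and Sc5d lie close together within G2APOL1 and above WT, whereas Srebf1, Insig1, Cyp51 and Stard4 are split within G0APOL1 with replicate 1 on top.

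In kidneys with the G0 transgene, 3 of the 30 genes rose against WT and 0 fell: Nsdhl again, the transcription factor Srebf1 and the lysosomal carrier Npc1. Over all tested genes, 4.48% rose and 3.68% fell. As in G2APOL1, 25 of 30 fold changes were positive, against 51.2% of all tested genes. Their median was 0.45, against 0.02 over all genes. An unadjusted p under 0.05 was reached by 11, all of them higher. Of all 14386 tested genes, 3242 reached it, 1731 of them higher. The comparison uses the same 2 WT libraries as the one of G2APOL1, so shared signs are not independent. All 3 calls were lost in at least 3 of the 6 fits with a library left out. Without G0APOL1 replicate 1 or without WT replicate 2, 0 genes passed, and in a fit of the 4 libraries alone 0 passed.

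Srebf1 encodes SREBP1, which mainly drives fatty acid synthesis, and lies on chromosome 11, 60199089 to 60222581, minus strand. The transcript forms of the gene were not told apart. It had 82.7 and 39.7 CPM in G0APOL1, 38.0 and 36.1 CPM in G2APOL1, and 23.7 and 29.2 CPM in WT. All 4 transgenic libraries were above both WT libraries, and 1 G0APOL1 library stood far above the rest. Srebf1 rose by 1.21 ± 0.30 in G0APOL1 (adjusted p = 0.0279) and was at 0.49 ± 0.30 in G2APOL1 (adjusted p = 0.379). Without G0APOL1 replicate 1 its value in G0APOL1 was 0.54 (adjusted p = 0.365), and the call was also lost without either WT library.

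Npc1, which moves cholesterol out of lysosomes (chromosome 18, 12189692 to 12236400, minus strand), had 18.6 and 23.5 CPM in G0APOL1, 16.8 and 13.4 CPM in G2APOL1, and 9.22 and 9.78 CPM in WT. The 3 groups did not overlap, and for this gene G0APOL1 replicate 2 was the higher of its pair. Npc1 rose by 1.15 ± 0.33 in G0APOL1 (adjusted p = 0.0487) and was at 0.67 ± 0.33 in G2APOL1 (adjusted p = 0.251). It had 89 to 199 counts per library. Npc1 shares 5.3% of its exonic bases with Rmc1 and Gm15956 on the opposite strand, and the library kit is not stated to mark strand. Nsdhl rose by 0.66 ± 0.18 in G0APOL1 (adjusted p = 0.0425). The calls of Npc1 and Nsdhl in G0APOL1 were lost with any of the 6 libraries left out, G2APOL1 libraries included, with adjusted p of up to 0.203 and 0.244. Their fold changes over these removals were 0.98 to 1.26 for Npc1 and 0.51 to 0.78 for Nsdhl. Both were also lost with DESeq2 size factors, with the stricter filter and without mitochondrial genes.

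Other enzymes in G0APOL1 against WT had values near those calls without passing. Acat2 was at 0.67 ± 0.21 (adjusted p = 0.0673, without the counts of its copy), Idi1 at 0.65 ± 0.22 (adjusted p = 0.0947) and Hsd17b7 at 1.02 ± 0.33 (adjusted p = 0.0835). Cyp51 was at 0.81 ± 0.28, Lss at 0.81 ± 0.31, Tm7sf2 at 0.70 ± 0.25 and Insig1 at 0.88 ± 0.31. Stard4, which ferries sterols through the cytosol, was at 1.29 ± 0.43 (adjusted p = 0.114), with 83.1 and 32.1 CPM in G0APOL1, 39.8 and 35.8 CPM in G2APOL1, and 29.95 and 17.25 CPM in WT. DESeq2 called Cyp51 and Stard4 beside Nsdhl and Srebf1, and limma-voom called Acat2 beside Nsdhl, Srebf1 and Npc1, with 0 lower in either.

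The carriers and stores of cholesterol outside Npc1 did not pass in either comparison with WT. Abca1 had 12.3 and 15.4 CPM in G2APOL1, 15.4 and 6.62 CPM in G0APOL1, and 7.64 and 13.2 CPM in WT, so that all 3 groups overlapped. Its fold change was 0.41 ± 0.45 in G2APOL1 and 0.08 ± 0.45 in G0APOL1, and without G0APOL1 replicate 1 it was -0.70 in G0APOL1. Soat1, the enzyme that esterifies cholesterol for storage, had 20.6 and 16.0 CPM in G2APOL1, 24.4 and 22.7 CPM in G0APOL1, and 19.6 and 20.4 CPM in WT. Both G0APOL1 libraries were above both WT libraries by a margin that did not pass, at 0.23 ± 0.28. The liver X receptors Nr1h3 and Nr1h2 were at 0.10 ± 0.20 and 0.05 ± 0.19 in G2APOL1, and at 0.19 ± 0.20 and -0.08 ± 0.19 in G0APOL1. Npc2, the soluble partner of Npc1, was at 0.25 ± 0.23 in G2APOL1 and 0.01 ± 0.23 in G0APOL1, with a WT pair at 97.5 and 57.7 CPM.

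Between the transgenes, 0 of the 30 genes passed in G2APOL1 against G0APOL1, where 0.48% of all tested genes did. By unadjusted p, 3 were under 0.05: Sc5d higher in G2APOL1, and Insig1 and Srebf1 lower. Of all 14386 tested genes, 970 were under 0.05. DESeq2 and limma-voom called 0 of the 30, and a fit with no low-count filter called Sc5d and Insig1. Sc5d was at 1.15 ± 0.34 (adjusted p = 0.33), Insig1 at -0.99 ± 0.32 (adjusted p = 0.383) and Srebf1 at -0.73 ± 0.30 (adjusted p = 0.67). For Insig1 and Srebf1 the difference lay largely in G0APOL1 replicate 1, without which they were at -0.23 and -0.03. Sc5d did not share that split, since its G0APOL1 replicate 1 was the lower of the pair. The different calls in the comparisons with WT are therefore not shown to be a difference between G2APOL1 and G0APOL1.

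Across both transgenes, 9 of 30 sterol genes were higher in all 4 transgenic libraries than in both WT libraries, against 18.1% of all tested genes. They were Acat2, Idi1, Lss, Tm7sf2, Nsdhl, Hsd17b7, Srebf1, Stard4 and Npc1. None of the 30, that is 0, was lower in all 4, against 17.6% of all tested genes. Of these 9, 6 are synthesis enzymes, spread over all 3 stretches of the pathway. The highly expressed enzymes Hmgcs1 and Cyp51 were not among them.

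Many sterol genes were split between the 2 G0APOL1 libraries, mostly on the same side. G0APOL1 replicate 1 had the highest value of the 6 libraries for 15 of 30 genes, against 14.6% of all tested genes. It was at least 1.5 times G0APOL1 replicate 2 for 11 of 30, against 14.2% of all tested genes. Those 11 were Pmvk, Mvd, Fdft1, Sqle, Cyp51, Msmo1, Dhcr7, Insig1, Srebf1, Stard4 and Abca1. Stard4 had the widest ratio at 2.59, followed by Fdft1 at 2.56, Abca1 at 2.32, Mvd at 2.26 and Insig1 at 2.22. Genes without a split included Acat2 at 0.94 and Nr1h2 at 0.991. Others were split the other way, with replicate 2 higher, as Insig2 at 0.637 and Sc5d at 0.703. The median ratio of replicate 1 over replicate 2 was 1.36 over the 30 genes and 0.986 over all tested genes. In G2APOL1 the median absolute log2 difference between the 2 libraries was 0.12 over the 30 genes, against 0.26 over all tested genes. In G0APOL1 it was 0.50 against 0.37, and in WT 0.42 against 0.43. These counts describe a pattern seen in the data and carry no test.

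**Figure D4:**
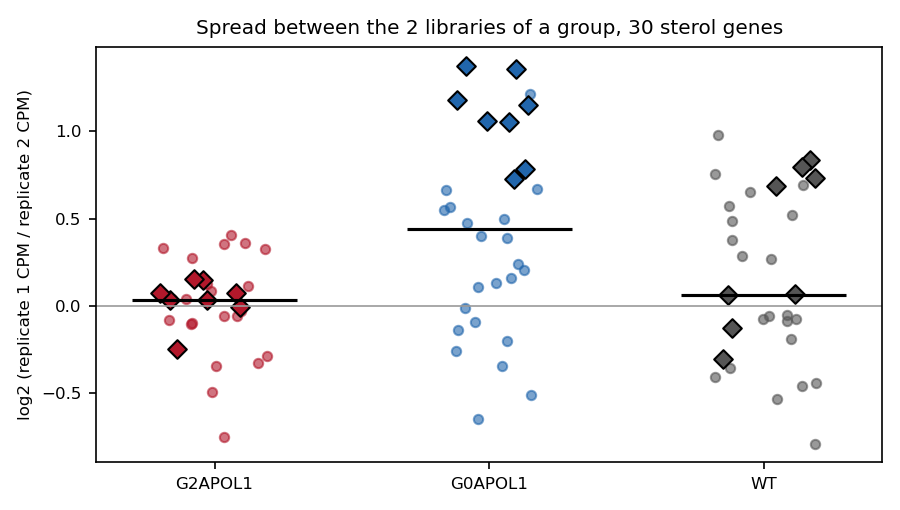
Each point is a sterol gene, placed by log2 of its CPM in replicate 1 over replicate 2 within G2APOL1, G0APOL1 or WT; black lines are medians over 30 genes and diamonds are Insig1, Stard4, Msmo1, Fdft1, Mvd, Srebf1, Cyp51 and Sqle. The diamonds are all well above 0 in G0APOL1, cluster around 0 in G2APOL1 and are scattered in WT.

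Genes that work beside the 30 were read from 6 related lists. The counts in these lists, and in the marker lists further on, stand beside shares over all tested genes. In G2APOL1 against WT 4.57% rose and 3.62% fell, and in G0APOL1 against WT 4.48% and 3.68%. Of 10 genes that escort, cut or degrade the SREBP machinery, only Erlin1, a membrane protein of the endoplasmic reticulum, passed, in both comparisons with WT. Erlin1 had 54.8 and 45.8 CPM in G2APOL1, 64.3 and 49.6 CPM in G0APOL1, and 17.95 and 24.4 CPM in WT. It rose by 1.25 ± 0.24 in G2APOL1 (adjusted p = 0.00782, lost without G2APOL1 replicate 1 at an adjusted p of 0.084) and by 1.43 ± 0.24 in G0APOL1 (adjusted p = 0.00349). Its partner Erlin2 was at 0.53 ± 0.19 in G2APOL1 and the ATPase Vcp, which pulls proteins out of the membrane for degradation, at 0.50 ± 0.18, neither passing.

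Among 10 genes of the isoprenoid branch, which leaves the sterol pathway after the mevalonate arm, 1 rose in G2APOL1 and 2 in G0APOL1. Coq2, an enzyme of ubiquinone synthesis, rose by 0.74 ± 0.19 in G2APOL1 (adjusted p = 0.035) and by 0.91 ± 0.19 in G0APOL1 (adjusted p = 0.012). Nus1, of dolichol synthesis, was at 0.54 ± 0.19 in G2APOL1 and rose by 0.70 ± 0.19 in G0APOL1 (adjusted p = 0.0379). Pdss1, which builds the side chain of ubiquinone, was at 0.57 ± 0.23 in G2APOL1 and 0.27 ± 0.24 in G0APOL1. In G2APOL1, Coq2 lost the call without either G2APOL1 library and without WT replicate 2. In G0APOL1, Coq2 lost it without G0APOL1 replicate 1, and Nus1 with any library left out except WT replicate 1.

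Fatty acid synthesis is the other branch under SREBP control. Of 12 genes, 5 rose and 1 fell in G2APOL1, where 4.57% of all tested genes rose and 3.62% fell. In G0APOL1, 6 rose and 1 fell, where 4.48% rose and 3.68% fell. The desaturase Fads2 had 58.7 and 60.1 CPM in G2APOL1, 51.2 and 50.4 CPM in G0APOL1, and 22.9 and 10.7 CPM in WT. Fads2 rose by 1.82 ± 0.30 in G2APOL1 (adjusted p = 0.00338) and by 1.59 ± 0.30 in G0APOL1 (adjusted p = 0.00616), and kept both calls whichever library was left out. The malic enzyme Me1 rose by 1.19 ± 0.22 in G2APOL1 and by 0.95 ± 0.22 in G0APOL1, the second call being lost without G0APOL1 replicate 1 (adjusted p = 0.175). Mid1ip1, an activator of acetyl-CoA carboxylase, fell by 1.08 ± 0.24 on the log2 scale in G2APOL1 and by 0.92 ± 0.24 in G0APOL1. The other calls, named after their values were seen, were Acss2, Scd1 and Acly in both comparisons and Elovl5 in G0APOL1. Except for Fads2 in both comparisons and Me1 in G2APOL1, each of these calls was lost with at least 1 library left out. Fasn was not called, and its high value was in G2APOL1 replicate 2, with 96.8 and 218 CPM in G2APOL1, 114 and 74.4 CPM in G0APOL1, and 91.1 and 81.1 CPM in WT.

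Of 16 other genes of sterol transport and storage, 2 rose in each comparison. Lipa, the lysosomal acid lipase that frees cholesterol from esters upstream of Npc2 and Npc1, had 71.5 and 69.1 CPM in G2APOL1, 86.8 and 75.0 CPM in G0APOL1, and 21.9 and 29.7 CPM in WT. Lipa rose by 1.45 ± 0.21 in G2APOL1 (adjusted p = 0.00164) and by 1.65 ± 0.21 in G0APOL1 (adjusted p = 0.000599) and kept both calls whichever library was left out. Osbpl8, a lipid transfer protein, rose by 0.76 ± 0.21 in G2APOL1 and by 1.12 ± 0.21 in G0APOL1, and lost the first call without either G2APOL1 library or WT replicate 2 and the second without G0APOL1 replicate 1. Gramd1a, a sterol carrier at membrane contacts, was at -1.15 ± 0.36 in G2APOL1 (adjusted p = 0.0683) and 0.09 ± 0.35 in G0APOL1.

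Among 7 genes of oxysterol and bile acid enzymes there was 1 call over both comparisons. Akr1d1, a steroid reductase, was at 0.72 ± 0.28 in G2APOL1 and rose by 1.54 ± 0.29 in G0APOL1 (adjusted p = 0.00565), a call lost without G0APOL1 replicate 1 (adjusted p = 0.077). Cyp7b1, an oxysterol hydroxylase, was at -0.34 ± 0.22 in G2APOL1 and -0.47 ± 0.22 in G0APOL1. Cyp46a1 had at most 16 counts in any library, and 0 and 1 in G2APOL1. Of 9 partners and targets of nuclear receptors, Smpdl3a, a secreted phosphodiesterase, rose and the phospholipid carrier Pltp fell in both comparisons. Smpdl3a rose by 1.54 ± 0.21 in G2APOL1 (adjusted p = 0.00104) and by 1.41 ± 0.21 in G0APOL1 (adjusted p = 0.00149), and kept both calls whichever library was left out. Pltp fell by 1.77 ± 0.36 in G2APOL1 and by 1.55 ± 0.36 in G0APOL1. It lost both calls without WT replicate 2, the first also without G2APOL1 replicate 2 and the second without G0APOL1 replicate 1. The transporter Abcg2 was at 0.55 ± 0.18 in G2APOL1 and 0.62 ± 0.18 in G0APOL1, neither passing.

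Markers of cell types moved with the groups as well. Of 18 proximal tubule markers, 16 rose in G2APOL1 and 15 in G0APOL1 against WT. Some of these calls were lost in each comparison with a library left out. Over these removals the called markers stayed positive, down to 0.76 for Slc7a13 in G2APOL1 and 0.55 for Slc5a2 in G0APOL1. The 18 proximal markers summed to 18690 and 18670 CPM in G2APOL1, 20180 and 17390 CPM in G0APOL1, and 9730 and 7454 CPM in WT. Transgenic and WT libraries did not overlap in this sum. The 18 sterol synthesis enzymes summed to 1813 and 1754 CPM in G2APOL1, 2157 and 1463 CPM in G0APOL1, and 1381 and 1173 CPM in WT. Their ratio to the proximal sum was 0.097 and 0.094 in G2APOL1, 0.107 and 0.0841 in G0APOL1, and 0.142 and 0.157 in WT. Both sums were thus higher in every transgenic library than in WT, while the ratio was lower in every one. Much of the synthesis sum came from Hmgcs1 and Cyp51, at 600.0 and 373 CPM in G2APOL1 replicate 1. In WT replicate 2 they were at 468.2 and 210 CPM. The ratio therefore does not describe each enzyme. The part of the proximal tubule markers in the sterol values was not tested.

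**Figure D5:**
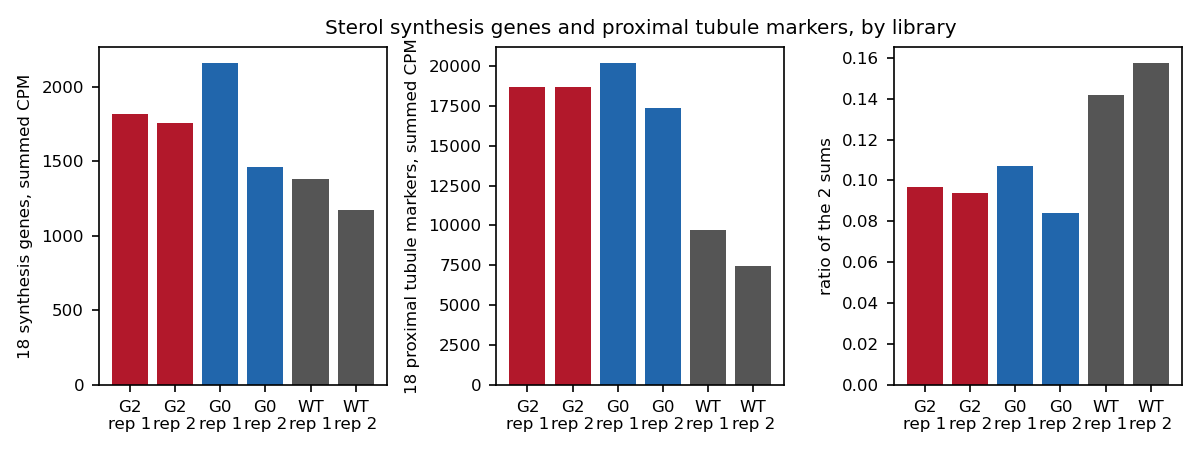
Bars give, for each library, the summed CPM of 18 sterol synthesis genes, the summed CPM of 18 proximal tubule markers, and the ratio of the 2 sums. The proximal sums are 17390 to 20180 CPM in the 4 transgenic libraries against 7454 and 9730 CPM in WT, and the ratio is higher in WT.

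Among other markers, 8 of 10 endothelial genes fell in each comparison with WT, with sums of 442 and 452 CPM in G2APOL1, 432 and 344 CPM in G0APOL1, and 846 and 943 CPM in WT. Of 10 macrophage markers, 5 fell in each, with sums of 130 to 147 CPM in the transgenic libraries against 230 and 297 CPM in WT. Of 10 fibroblast markers, 4 fell in G2APOL1 and 5 in G0APOL1, and of 8 urothelium markers 4 and 5. Of 6 red cell markers, 4 fell in G2APOL1 and 3 in G0APOL1. The adrenal cortex, which makes steroids from cholesterol and lies on the kidney, was read through 10 markers, of which Cyp11a1, Cyp11b1, Cyp11b2, Cyp21a1 and Nr5a1 had 0 counts in all 6 libraries. Of the others, Star had 14 to 41 counts and Akr1b7 5 to 37, Mc2r had 9 in WT replicate 2 alone, and Mrap had 14 in G2APOL1 replicate 2 and 5 in WT replicate 1. Fdx1, which serves mitochondrial cytochromes in many tissues, had 775 to 1591 counts. Adipocyte markers summed to 28.3 and 247 CPM in G2APOL1, 29.5 and 31.1 CPM in G0APOL1, and 126 and 119 CPM in WT. Most of the WT sums was Fabp4, at 96.4 and 113.6 CPM. Fabp4 fell by 2.20 ± 0.41 on the log2 scale in G0APOL1 (adjusted p = 0.0153). That call was lost without either G0APOL1 or either WT library. In WT replicate 2, Adipoq, Plin1, Lep, Retn and Cidec had 0 counts. Adipoq was at 15.5 CPM in G2APOL1 replicate 2, at 0 in G2APOL1 replicate 1 and at 3.77 CPM in WT replicate 1. Fasn was high in G2APOL1 replicate 2 too. In G2APOL1 replicates 1 and 2, Acat2 was at 123.5 and 130.6 CPM and Idi1 at 143.9 and 132 CPM. Nsdhl was at 94.4 and 98.1 CPM there, and Sc5d at 34.0 and 36.5 CPM. The part of the other markers in the Fasn and sterol values was not tested.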

How the data were processed

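Bulk RNA was sequenced from 10 mg of frozen kidney per library, per the labels' protocols, with the Qiagen RNeasy kit, an RNA integrity number of at least 6, the NEBNext Ultra RNA kit and paired reads of 150 bases. All 6 libraries carry batch number 1. The deposited values are expected counts, that is, estimated reads per gene, with column totals that differ between libraries. The submitters' processing notes list mm10 and Cell Ranger ARC 2.0.2 without a role (aligner and counter: not given in the sources used here). Of 54146 gene identifiers, 54079 matched GENCODE M21 (GRCm38), 52480 of them with the version.

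Expected counts were rounded. Genes were filtered with edgeR's filterByExpr, which left 14386, scaled with TMM and fitted together over 6 libraries (edgeR 4.0.16, R 4.3.3, glmQLFit with robust estimation, 3 residual degrees of freedom, a biological coefficient of variation of 0.315). Comparisons used the two-sided quasi-likelihood F test with Benjamini-Hochberg adjustment over all tested genes and a threshold of 0.05. The SE is the log2 fold change divided by the square root of F. CPM is on the TMM scale, and the level per length divides counts by union exon length. Exonic overlaps came from the annotation. Near-identical copies were transcripts that matched over 50% or more of the length with 95% or more identity (minimap2 2.31). Promoter windows are RefSeq's. The procedure was tested on simulated data. Other settings were DESeq2 1.42.0, limma-voom (limma 3.58.1), DESeq2 size factors, no filter, a stricter filter of 50 counts in 2 libraries, 4 libraries alone, a replicate block, no mitochondrial genes, summed copies and each library left out.

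The 30 genes, related lists and marker lists were chosen with earlier results of these data known, so counts over them are descriptions. Among the 30, values in every library are given for genes that passed and for Srebf2, Srebf1, Insig1, Hmgcs1, Sqle, Abca1 and Soat1 whatever their result. From each related list, up to 3 genes with the smallest p in G2APOL1 against WT are named. The human transgene was not analysed here, and a few genes of the related lists are not reported here.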

Additional observations from a re-analysis of the deposited data

How the results depend on the processing

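In G2APOL1 against WT, the 4 sterol genes remained called under all 9 settings other than leaving out single libraries, and no low-count filter added Mvd for 5. Leaving out a library gave 1 to 5, where the lone library of its group is assumed to vary like the other groups. In G0APOL1 against WT, 3 became 1 with DESeq2 size factors, with the stricter filter or without mitochondrial genes, each time Srebf1, 0 with 4 libraries alone, 8 with no filter and 7 with the replicate block. Leaving out a library gave 0 to 5, 0 without G0APOL1 replicate 1 and 5 without G0APOL1 replicate 2. In G2APOL1 against G0APOL1, 0 became 2 with no filter, and leaving out any library gave 0.

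Over all genes, 1178 calls in G2APOL1 against WT became 1806 with no filter and 338 to 1835 with a library left out. In G0APOL1 against WT, 1175 became 658 with 4 libraries alone and 599 to 1721 with a library left out. In G2APOL1 against G0APOL1, 69 became 245 with no filter, 133 with DESeq2, 119 with 4 libraries alone, 120 with the replicate block and 27 to 150 with a library left out. Replicate numbers are not stated to pair the samples. Same-numbered libraries correlated at 0.0956, 0.0578 and 0.0426 in their deviations from the group means. With 2 libraries a group these deviations mirror each other, so the values cannot decide whether samples were paired. The causes were not tested.

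For 12 of the 30 genes, those for which the rule asks for values in every library, 15 other settings and 3 comparisons gave 540 values, of which 480 kept direction and side of the threshold, 32 lost the call, 11 gained it and 17 turned sign. With the stricter filter Srebf2 was at -0.033 in G2APOL1 and -0.040 in G0APOL1 against WT, and Abca1 at -0.0036 in G0APOL1. With a library left out, values that turned sign ranged, in G2APOL1 against WT, -0.42 to 0.31 for Sqle, -0.084 to 0.21 for Srebf2 and -0.29 to 0.059 for Soat1; in G0APOL1 against WT, -0.10 to 0.52 for Hmgcs1, -0.32 to 0.31 for Srebf2 and -0.70 to 0.58 for Abca1; in G2APOL1 against G0APOL1, -0.067 to 0.56 for Hmgcs1, -0.043 to 0.53 for Idi1, -0.25 to 0.39 for Srebf2 and -0.15 to 1.13 for Abca1. Among these 12 genes, no sign that turned belonged to a call. Another scaling moved the median of all genes by less than 0.1. With 2 libraries a group, small differences cannot be shown.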
